A study of Mus musculus with 9 samples.

Results

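The genes that encode the SR splicing factors, the heterogeneous nuclear ribonucleoproteins (hnRNPs), the SF3A and SF3B subunits and the CLK kinases were described in mouse kidney after ischemia-reperfusion injury. They were chosen by name: protein-coding genes whose GENCODE M21 symbol begins with Srsf, Hnrnp, Sf3a or Sf3b, together with Clk1 to Clk4. The rule found 44 genes among 29678 gene rows, of which 4 were Clk, 11 Srsf, 20 Hnrnp and 9 Sf3 genes. All 44 passed the filter on low counts that left 17967 genes for testing, and Srsf12 alone lay near the detection limit, with at most 0.301 CPM (counts scaled to a common library total) in any library.

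Messenger RNA of kidney tissue was sequenced 24 h after reperfusion in 3 groups. BHBNa_bIRI kidneys had bilateral ischemia-reperfusion injury and had been given BHB sodium, a salt of beta-hydroxybutyrate, beforehand. Beta-hydroxybutyrate is a ketone body made in the liver during fasting. bIRI kidneys had the bilateral injury without that pretreatment, and Sham kidneys came from a sham operation. The labels used here give no dose or timing of the salt, no ischemia time, and no strain, genotype, age or sex, and they do not say whether libraries of a group came from separate mice. The p-values therefore measure the spread between libraries, which may be technical in part.

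Before any messenger RNA leaves the nucleus its introns are removed by the spliceosome. SR proteins bind exonic enhancers and help the spliceosome choose splice sites, while many hnRNPs bind silencers and act against that choice. The SF3A and SF3B complexes are parts of the U2 small nuclear ribonucleoprotein (snRNP), which recognises the branch point. CLK kinases phosphorylate the SR proteins in the nucleus. Many of these genes control their own amount through transcripts that keep an intron or carry an exon with a stop codon, and counts per gene, as measured here, do not separate such transcripts from coding ones.

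Library totals ran from 33477985 to 45909063 counts. With these totals adjusted by the TMM factors, a floor of 3 counts corresponded to 0.0646 to 0.0815 CPM. In all 29678 rows bIRI replicate 2 held the floored average of its group's other libraries, so it adds no measurement and was left out, leaving 3 BHBNa_bIRI, 2 bIRI and 3 Sham libraries. The tissue label was met by its markers: all 6 proximal tubule markers were detected, with summed levels of 1581 to 1703 CPM in BHBNa_bIRI, 1187 and 1364 CPM in bIRI and 10862 to 12434 CPM in Sham. These 6 genes were called lower in both injured groups against Sham. The 5 tubular injury markers summed to 12591 to 13954 CPM in BHBNa_bIRI, 15213 and 24639 CPM in bIRI and 396 to 469 CPM in Sham. The 8 leukocyte markers summed to 130.4 to 163.5 CPM in BHBNa_bIRI, 65.3 and 73.9 CPM in bIRI and 38.0 to 79.0 CPM in Sham. Their directions were mixed. In BHBNa_bIRI against Sham 3 were called higher and Cd3e lower (log2 -2.76), against 21.3% and 22.2% of all genes tested. Cd3e lay near the floor in the injured libraries. The part of leukocytes in the results below was not tested. In such bulk tissue a change in the mix of cells and a change in the RNA of each cell cannot be told apart.

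The remaining bIRI libraries differed from each other. In bIRI replicate 3, long intergenic RNA genes took 0.573% of all counts, against 0.153% in bIRI replicate 1, and 0.14% to 0.179% in the BHBNa_bIRI and Sham libraries. Malat1, a long RNA kept in nuclear speckles where SR proteins gather, had 74.4, 85.7 and 64.1 CPM in BHBNa_bIRI, 104 and 597 CPM in bIRI replicates 1 and 3, and 10.2, 16.1 and 20.2 CPM in Sham. Neat1, the long RNA that paraspeckles form on, had 267, 282 and 242 CPM in BHBNa_bIRI, 106 and 1901 CPM in bIRI replicates 1 and 3, and 69.3, 129 and 128 CPM in Sham. Mitochondrially encoded genes took 24% to 30.3% of counts in BHBNa_bIRI, 15.9% in each bIRI library and 11.2% to 13.3% in Sham. The 6 markers of the loop, distal tubule and collecting duct summed to 879 to 1495 CPM in BHBNa_bIRI, 1991 and 5295 CPM in bIRI replicates 1 and 3, and 2492 to 4095 CPM in Sham. Among them Slc12a1, the salt transporter of the thick ascending limb, had 25.3, 17.8 and 21.3 CPM in BHBNa_bIRI, 33.1 and 1114 CPM in bIRI replicates 1 and 3, and 503, 542 and 272 CPM in Sham. Not all 6 went this way: Calb1 had 143 and 142 CPM in bIRI replicates 1 and 3. In BHBNa_bIRI against Sham 5 of the 6 were called lower and Aqp2 higher (log2 1.04), against 22.2% and 21.3% of all genes tested. The 4 fibroblast and pericyte markers summed to 347 to 498 CPM in BHBNa_bIRI, 384 and 237 CPM in bIRI replicates 1 and 3, and 115 to 134 CPM in Sham. No marker of these lists was at 0 in any library. The part of these differences in the results on splicing genes was not tested, and both bIRI libraries are given singly.

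Together the 44 genes took 0.414%, 0.436% and 0.327% of all counts in BHBNa_bIRI, 0.493% in bIRI replicate 1 and 0.749% in bIRI replicate 3, and 0.274%, 0.286% and 0.275% in Sham. Every injured library therefore gave these genes a larger share than every Sham library did. Per kilobase of merged exons, mean Sham levels ran from 0.0231 CPM for Srsf12 to 44.4 CPM for Hnrnpf, a binder of G-rich RNA. Hnrnpk, which binds C-rich RNA, stood next at 41.4 ± 2.25 CPM per kilobase and Hnrnpf at 44.4 ± 2.32 (SD, n = 3 each), so these neighbours lay less than 2 SD apart. Hnrnpab at 35.3 ± 0.842 followed, below both by more than those spreads. The 4 Clk genes lay in the lower part of the order, from 2.40 ± 0.240 CPM per kilobase for Clk2 to 3.41 ± 0.573 for Clk1 (SD, n = 3). Merged exons include those of every annotated transcript, and they exceed the longest coding transcript by unlike amounts. Their length was 8132 bases against 1796 for Clk1, 6584 against 1728 for Hnrnpa2b1, and 3047 against 2401 for Hnrnpf. The order therefore depends on the length used.

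**Figure D1:**
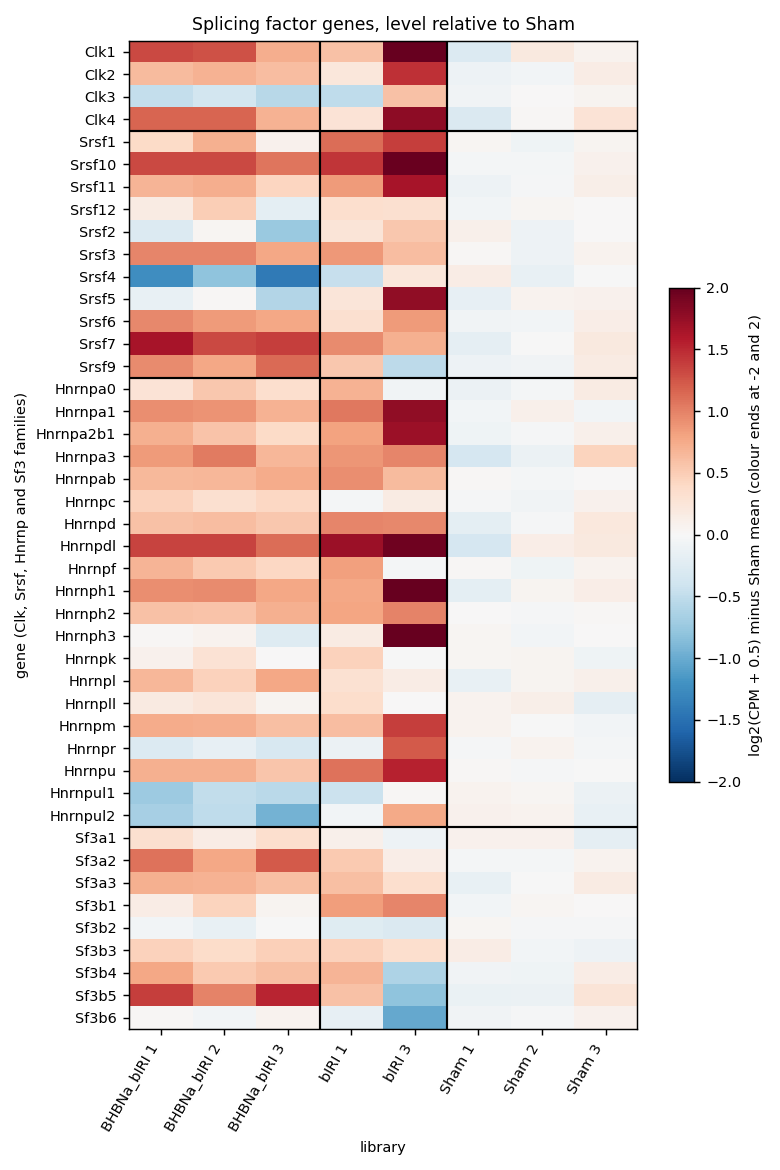
Level of the 44 genes (rows, by family) in each of 8 libraries (columns: BHBNa_bIRI, bIRI, Sham), as log2(CPM + 0.5) minus the mean of the Sham libraries, with red above and blue below Sham and colour ending at -2 and 2. Most rows are red in the injured libraries, Srsf4, Hnrnpul1 and Hnrnpul2 are blue in BHBNa_bIRI, and the columns of bIRI replicates 1 and 3 differ from each other.

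Against Sham, bIRI kidneys had more RNA of many splicing genes, and in the fit of 8 libraries of none significantly less. Of the 44 genes, 23 were called at an adjusted p of 0.05 (edgeR's quasi-likelihood test with Benjamini-Hochberg adjustment over all genes), all 23 of them higher, against 35.1% of all genes tested that were called and 18.9% called higher. They comprised 3 of 4 Clk, 7 of 11 Srsf, 11 of 20 Hnrnp and 2 of 9 Sf3 genes. The median log2 fold change was 0.73 over the 44 genes and 0.08 over all genes tested. In the fit of 8 libraries no member was called lower by edgeR or by DESeq2. None had an unadjusted edgeR p under 0.05 with a negative change there. With offsets for transcript length and GC content 1 member was called lower. With the averaged bIRI replicate 2 kept, Sf3b6 was called lower (log2 -0.55, edgeR adjusted p = 0.0374). In 28 members both bIRI libraries lay above all Sham libraries, and in 2 below, against 28.7% and 27.2% of all genes tested (55.9% in either direction). The number called was 15 without Sham replicate 1, and also 15 without Sham replicate 2, where 23.4% and 23.5% of all genes were called. Where bIRI replicate 1 stood alone for its group, the median was 0.58 over the members and 0.01 over all genes. Where bIRI replicate 3 did, it was 0.67 and 0.02. Changes under 0 included Clk3 (-0.53) in the former fit, and Sf3b6 (-1.10), Sf3b5 (-0.89), Sf3b4 (-0.70) and Srsf9 (-0.61) in the latter. These single-library fits assume that the lone sample varies like the other groups. Of the 23 calls, 14 stood in each of the 8 fits that left out a library, and 9 did not (Clk1, Clk2, Clk4, Hnrnpa3, Hnrnph3, Sf3a3, Srsf3, Srsf5 and Srsf6). The highest adjusted p of these over the 8 fits was 0.0564 for Srsf3, 0.0661 for Hnrnpa3, 0.0856 for Clk1, 0.169 for Srsf6, 0.234 for Sf3a3, 0.378 for Clk2, 0.434 for Srsf5, 0.435 for Clk4 and 0.588 for Hnrnph3.

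Kidneys pretreated with the salt before injury, compared with injury alone, had fewer called genes and mixed directions. In BHBNa_bIRI against bIRI, 9 members were called, 2 higher and 7 lower, against 13.5% of all genes tested that were called, 4.88% higher and 8.65% lower. The median was -0.30 over the members and -0.05 over all genes tested. An unadjusted edgeR p under 0.05 was found for 21 of the 44 members and for 6191 of the 17967 genes tested. BHBNa_bIRI lay wholly above bIRI in 9 members and wholly below in 17, against 22.2% and 23.8% of all genes tested (46% in either direction). With upper-quartile scaling factors the calls split into 3 higher and 6 lower. None of these calls stood in every alternative. With bIRI replicate 1 alone for its group, the median was -0.15 over the members and 0.04 over all genes. With bIRI replicate 3 alone it was -0.40 and -0.04. In the other fits, edgeR called 0 members without Sham replicate 1 or 2 and without BHBNa_bIRI replicate 1 or 3. At most 0.00561% of all genes were called there. It called 1 without Sham replicate 3 and 5 without BHBNa_bIRI replicate 2, where 5.73% and 6.49% of all genes were called. It called 0 in a fit of these groups alone and 0 with offsets for transcript length and GC content. DESeq2 on the 8 libraries called 15 members and 25.1% of all genes. The calls against bIRI are therefore given below with both bIRI libraries in view.

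Against Sham, BHBNa_bIRI kidneys also had higher levels of many splicing genes. Of the 44 members 25 were called, 22 higher and 3 lower, against 43.6% of all genes tested that were called, 21.3% higher and 22.2% lower. The median was 0.63 over the members and 0.04 over all genes tested. Called higher were 2 Clk, 6 Srsf, 10 Hnrnp and 4 Sf3 genes, and called lower were Srsf4, Hnrnpul1 and Hnrnpul2. BHBNa_bIRI lay wholly above Sham in 31 members and wholly below in 5, against 32.6% and 32.2% of all genes tested (64.8% in either direction). Without Sham replicate 1 the number called was 14, and without Sham replicate 2 it was 13, where 30.2% and 30.5% of all genes were called. Of the 25 calls, 12 stood in each of the 8 fits that left out a library: Hnrnpa1, Hnrnpab, Hnrnpdl, Hnrnph2, Sf3a2, Sf3a3, Sf3b5, Srsf10, Srsf3, Srsf4, Srsf6 and Srsf7. The other 13 reached adjusted p-values of 0.0543 to 0.148 in at least 1 of those fits. This comparison shares its Sham libraries with that of bIRI against Sham, and the values of each are given side by side.

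**Figure D2:**
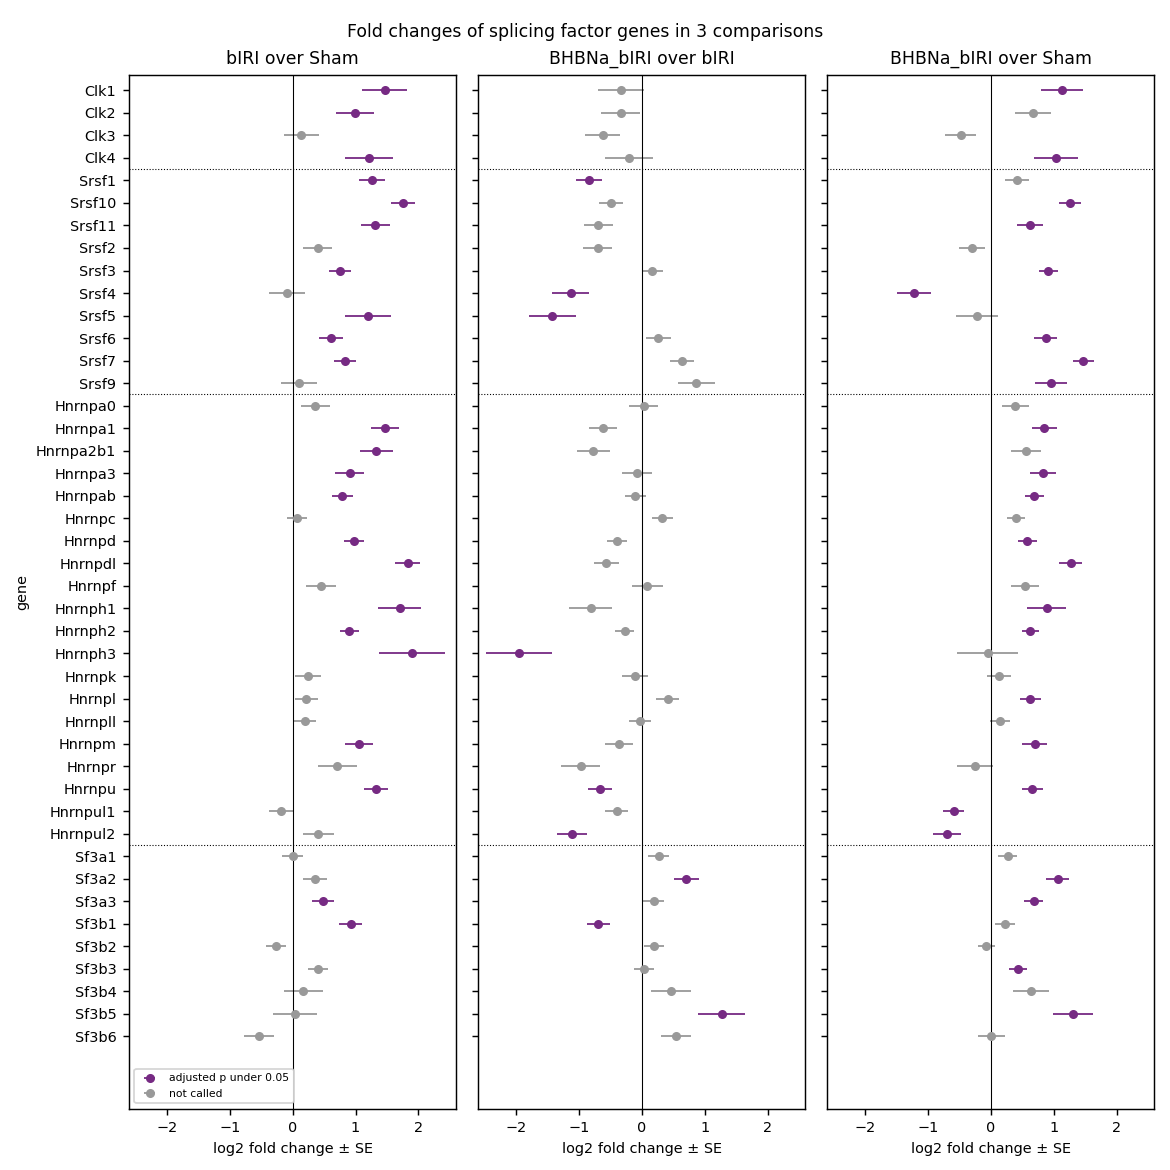
Fitted log2 fold changes with standard errors (x axis) of 43 genes (y axis, by family; Srsf12, near the detection limit, is not drawn) in bIRI over Sham, BHBNa_bIRI over bIRI and BHBNa_bIRI over Sham, with called genes in purple. In the left panel all 23 called genes lie to the right of 0; in the middle panel 7 called genes lie to the left and Sf3a2 and Sf3b5 to the right; in the right panel 22 lie to the right and 3 to the left.

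Of the 4 CLK kinase genes, 3 were called higher in bIRI against Sham and 2 in BHBNa_bIRI against Sham. Of all genes tested, 18.9% and 21.3% were called higher in these comparisons. All 4 were more than 2-fold higher in bIRI replicate 3 than in bIRI replicate 1, against 12.1% of all genes tested. Clk1 (ENSMUSG00000026034, chr1:58410189-58424066) had 69.3, 67.5 and 45.7 CPM in BHBNa_bIRI, 41.7 and 111.4 CPM in bIRI replicates 1 and 3, and 22.6, 31.7 and 29.0 CPM in Sham. All injured libraries lay above all Sham libraries, and the BHBNa_bIRI libraries lay between the values of bIRI replicates 1 and 3. Clk1 was 2.76-fold higher in bIRI than in Sham (log2 1.46 ± 0.36 SE, edgeR adjusted p = 0.0126) and 2.19-fold higher in BHBNa_bIRI than in Sham (1.13 ± 0.33, adjusted p = 0.021). Between BHBNa_bIRI and bIRI it was not called (log2 -0.33 ± 0.36, adjusted p = 0.547).

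Clk4, the kinase closest to Clk1, had 38.4, 38.8 and 27.7 CPM in BHBNa_bIRI, 20.6 and 59.6 CPM in bIRI replicates 1 and 3, and 13.7, 17.3 and 20.5 CPM in Sham. Both injured groups lay above Sham without overlap, although bIRI replicate 1 exceeded the highest Sham library by little. Clk4 was called higher in bIRI (log2 1.22 ± 0.38, edgeR adjusted p = 0.0315) and in BHBNa_bIRI (1.03 ± 0.35, adjusted p = 0.0368), each against Sham. Clk2, which phosphorylates SR proteins as the others do, had 20.0, 20.9 and 19.8 CPM in BHBNa_bIRI, 14.9 and 35.7 CPM in bIRI, and 11.8, 12.1 and 14.2 CPM in Sham. It was called in bIRI against Sham (log2 0.99 ± 0.30, adjusted p = 0.0307) and not in BHBNa_bIRI against Sham (0.67 ± 0.28, adjusted p = 0.0766). Clk3 went another way, with 18.2, 19.7 and 17.4 CPM in BHBNa_bIRI, 17.8 and 38.8 CPM in bIRI, and 24.4, 25.8 and 26.7 CPM in Sham. The bIRI libraries lay on either side of Sham, the BHBNa_bIRI libraries lay below Sham, and no comparison of Clk3 was called (edgeR adjusted p from 0.145 to 0.724). Where bIRI replicate 1 stood alone for its group, the log2 changes against Sham were 0.59 for Clk1 (adjusted p = 0.0856), 0.23 for Clk2 (0.378), 0.27 for Clk4 (0.435) and -0.53 for Clk3 (0.0442). The calls in bIRI against Sham also fell away in other fits: that of Clk1 without Sham replicate 1 (adjusted p = 0.0521), that of Clk4 with any 1 Sham library left out, and that of Clk2 with any 1 Sham library or BHBNa_bIRI replicate 1 or 3 left out. Of the 8 fits that left out a library, 6 kept the call of Clk1, 4 that of Clk4 and 2 that of Clk2. In BHBNa_bIRI against Sham, 4 kept the call of Clk1 and 2 that of Clk4.

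**Figure D3:**
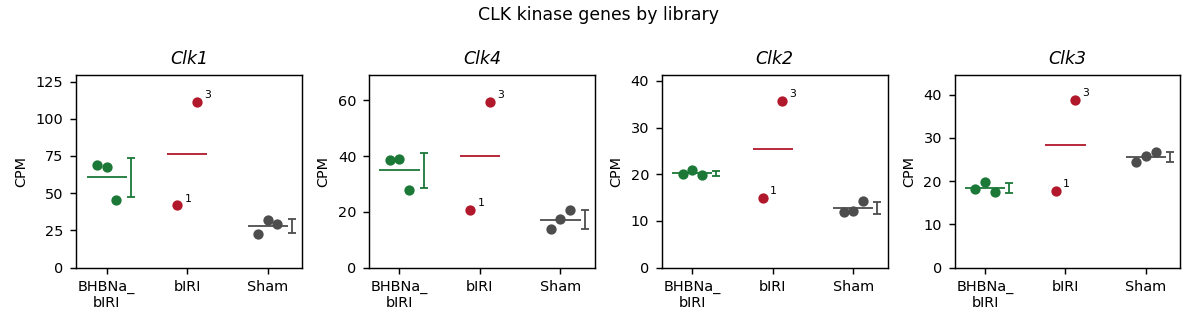
CPM (y axis, from 0) of Clk1, Clk4, Clk2 and Clk3 in each library of BHBNa_bIRI, bIRI and Sham; points are libraries, lines are group means, bars are SD over 3 libraries, and numbers mark bIRI replicates 1 and 3. In all 4 panels bIRI replicate 3 is the highest library and bIRI replicate 1 lies nearer to Sham.

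Among the 11 SR protein genes, Srsf10, Srsf11, Srsf1, Srsf3, Srsf5, Srsf6 and Srsf7 were called higher in bIRI against Sham. Of all genes tested, 18.9% were called higher there. Srsf10 (ENSMUSG00000028676, chr4:135855747-135869908), whose dephosphorylated protein represses splicing in heat shock, had 58.2, 58.3 and 49.2 CPM in BHBNa_bIRI, 63.2 and 92.2 CPM in bIRI, and 22.6, 22.4 and 24.4 CPM in Sham. The injured libraries were all above Sham by a wide margin, with folds of 3.36 in bIRI (log2 1.75 ± 0.19, edgeR adjusted p = 0.000253) and 2.39 in BHBNa_bIRI (1.26 ± 0.17, adjusted p = 0.000526). Srsf11, an SR-related protein found with U2AF, had 67.6, 70.4 and 56.8 CPM in BHBNa_bIRI, 76.1 and 133.0 CPM in bIRI, and 39.4, 41.5 and 45.7 CPM in Sham. Its groups did not overlap in any of the comparisons, and it was called against Sham in bIRI (log2 1.31 ± 0.23, adjusted p = 0.00264) and in BHBNa_bIRI (0.62 ± 0.21, adjusted p = 0.0379).

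Srsf7, an SR protein with a zinc knuckle, had the largest change of the members in BHBNa_bIRI against Sham. It had 109.5, 86.9 and 90.8 CPM in BHBNa_bIRI, 66.4 and 56.8 CPM in bIRI, and 30.3, 34.2 and 39.4 CPM in Sham, and no pair of groups overlapped. The fold over Sham was 2.77 in BHBNa_bIRI (log2 1.47 ± 0.17, edgeR adjusted p = 0.000192) and 1.78 in bIRI (0.83 ± 0.18, adjusted p = 0.00742), and BHBNa_bIRI against bIRI gave 0.64 ± 0.19 (adjusted p = 0.0517). Srsf3, the smallest SR protein, had 173.5, 174.4 and 151.6 CPM in BHBNa_bIRI, 160.6 and 135.7 CPM in bIRI, and 89.8, 82.1 and 93.2 CPM in Sham. The injured groups overlapped each other and both stood above Sham, with log2 changes of 0.91 ± 0.15 in BHBNa_bIRI (adjusted p = 0.00147) and 0.75 ± 0.17 in bIRI (adjusted p = 0.00865). With offsets for length and GC content the bIRI change was 0.39 and no longer called (adjusted p = 0.0672). Srsf9, a relative of Srsf1, had 70.8, 62.7 and 80.6 CPM in BHBNa_bIRI, 53.1 and 25.3 CPM in bIRI, and 34.0, 34.8 and 41.0 CPM in Sham. It was called higher in BHBNa_bIRI against Sham (0.96 ± 0.25, adjusted p = 0.0129), while the bIRI libraries lay above and below Sham.

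Srsf1, Srsf5 and Srsf4 were called lower in BHBNa_bIRI than in bIRI. Srsf1, the founding SR protein, had 92.1, 115.3 and 74.3 CPM in BHBNa_bIRI, 152 and 184 CPM in bIRI, and 71.8, 66.2 and 72.8 CPM in Sham. Both bIRI libraries were above every other library, with log2 changes of 1.26 ± 0.21 in bIRI against Sham (edgeR adjusted p = 0.00176), -0.84 ± 0.21 in BHBNa_bIRI against bIRI (adjusted p = 0.0353) and 0.42 ± 0.19 in BHBNa_bIRI against Sham (adjusted p = 0.0964). With offsets for length and GC content the first of these was 0.64 (adjusted p = 0.00784) and the change against bIRI -0.18 (adjusted p = 0.44). Srsf5 had 102, 115 and 75.5 CPM in BHBNa_bIRI, 135 and 389 CPM in bIRI replicates 1 and 3, and 102, 119 and 121 CPM in Sham. This gene, also an SR protein, was 1 of the members with the widest gap between the bIRI libraries. It was called in bIRI against Sham (log2 1.2 ± 0.37, adjusted p = 0.032) and in BHBNa_bIRI against bIRI (-1.42 ± 0.37, adjusted p = 0.039), and with bIRI replicate 1 alone the values were 0.24 (0.434) and -0.47 (0.204).

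Srsf4, a long SR protein, was among the members with lower levels after pretreatment and injury. It had 3.99, 5.60 and 3.50 CPM in BHBNa_bIRI, 7.24 and 11.9 CPM in bIRI, and 11.2, 9.13 and 10.1 CPM in Sham. All BHBNa_bIRI libraries lay below all others, with log2 changes of -1.22 ± 0.27 against Sham (edgeR adjusted p = 0.00547) and -1.13 ± 0.29 against bIRI (adjusted p = 0.0373). The exons of Srsf4 overlap the opposite-strand gene Gm12992 over 43% of their length, and since the strand setting of the counting was not given, reads of the pair cannot be told apart. Of the other SR genes, Srsf6 was called higher against Sham in both injured groups (log2 0.87 in BHBNa_bIRI and 0.61 in bIRI), and Srsf2, the speckle protein also called SC35, in neither (-0.30 and 0.40).

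**Figure D4:**
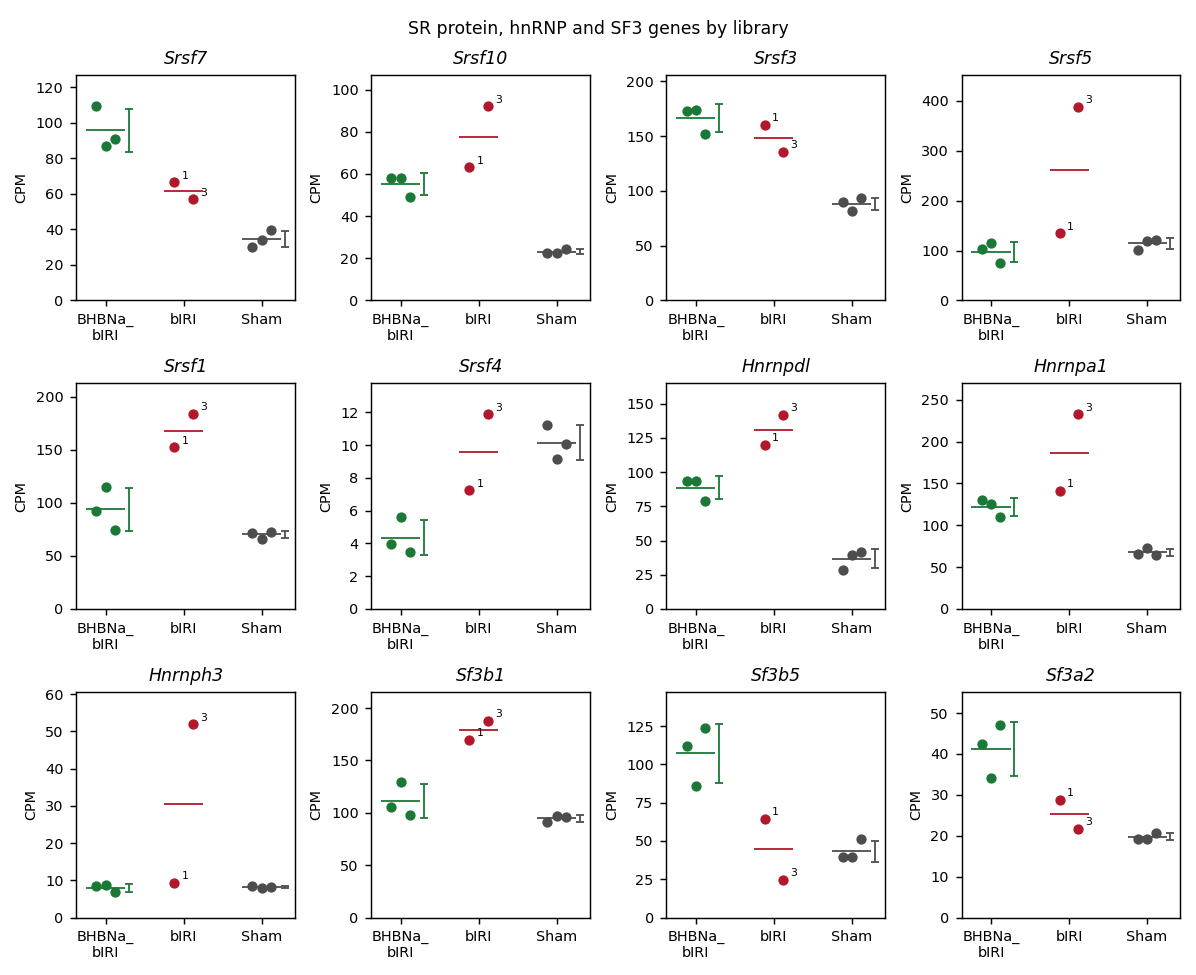
CPM (y axis, from 0) of 12 SR protein, hnRNP and SF3 genes in each library of BHBNa_bIRI, bIRI and Sham; points are libraries, lines are group means, bars are SD over 3 libraries, and numbers mark bIRI replicates 1 and 3. Srsf7, Srsf10, Srsf3, Hnrnpdl and Hnrnpa1 stand above Sham in every injured library, whereas in Srsf5 and Hnrnph3 a single bIRI library stands apart.

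The starts of 3 of these genes are shown because they were called in different patterns: Srsf7 and Hnrnpa1 higher against Sham in both injured groups, and Srsf4 lower in BHBNa_bIRI. Sequences are the 250 bases before the RefSeq start on GRCm38.p6, read 5′ to 3′ on the gene's strand. Capitals mark matches, on either strand, to the GC box GGGCGG, the CCAAT box CCAAT and the ETS-type motif CCGGAAG, none of which overlapped another motif.
Srsf7, chr17:80207306-80207555, minus strand: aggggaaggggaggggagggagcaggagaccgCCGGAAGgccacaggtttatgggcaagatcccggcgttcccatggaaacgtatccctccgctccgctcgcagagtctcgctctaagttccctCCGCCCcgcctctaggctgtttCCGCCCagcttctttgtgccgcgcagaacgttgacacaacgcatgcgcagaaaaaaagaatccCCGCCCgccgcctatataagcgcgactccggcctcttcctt
Hnrnpa1, chr15:103240147-103240396, plus strand: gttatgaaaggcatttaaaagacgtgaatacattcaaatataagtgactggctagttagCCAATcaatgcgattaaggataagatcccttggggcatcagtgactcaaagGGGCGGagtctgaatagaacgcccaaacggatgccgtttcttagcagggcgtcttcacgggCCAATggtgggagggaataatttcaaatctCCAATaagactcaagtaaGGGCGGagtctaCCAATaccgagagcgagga
Srsf4, chr4:131873387-131873636, plus strand: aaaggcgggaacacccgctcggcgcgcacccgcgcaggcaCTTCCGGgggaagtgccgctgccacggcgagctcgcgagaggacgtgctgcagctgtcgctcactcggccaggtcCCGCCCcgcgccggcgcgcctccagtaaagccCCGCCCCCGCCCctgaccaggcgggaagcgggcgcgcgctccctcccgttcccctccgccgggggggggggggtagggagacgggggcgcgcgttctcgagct

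The Srsf7 window held 3 GC boxes and 1 ETS-type motif, the Hnrnpa1 window 2 GC boxes and 4 CCAAT boxes, and the Srsf4 window 3 GC boxes and 1 ETS-type motif. RefSeq windows were matched for 39 of the 44 members. In them GGGCGG was found in 30 (76.9%), against 32.7% of all 27025 promoters and 55.6% of 11624 promoters of protein-coding genes tested. CCGGAAG was found in 13 (33.3%), against 7.14% and 12.6% of the same sets. CCAAT was found in 18 (46.2%), against 34.2% and 35.6%, and TGACG, the core of the cAMP response element, in 18 (46.2%), against 17.6% and 24.8%. TATAAA, the TATA box, was found in 4 (10.3%), against 12.9% and 7.06%. Where a gene had several windows, members were given that nearest the annotated start, and other genes that of lowest coordinate. The shares compared here thus rest on unlike choices of window. Matches were counted on both strands and are a description of letters, with no test.

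Among the hnRNP genes, 11 of 20 were called higher in bIRI against Sham, against 18.9% of all genes tested. Hnrnpdl (ENSMUSG00000029328, chr5:100033577-100039664), a relative of Hnrnpd, had 93.4, 93.5 and 78.8 CPM in BHBNa_bIRI, 120.1 and 141.7 CPM in bIRI, and 28.7, 39.7 and 41.6 CPM in Sham. No pair of groups overlapped, and the folds over Sham were 3.57 in bIRI (log2 1.83 ± 0.20, edgeR adjusted p = 0.000255) and 2.41 in BHBNa_bIRI (1.27 ± 0.18, adjusted p = 0.000631). Hnrnpa1, which binds splicing silencers, had 129.8, 125.7 and 109.8 CPM in BHBNa_bIRI, 141 and 232 CPM in bIRI, and 65.3, 72.9 and 64.7 CPM in Sham. All injured libraries were above Sham, with log2 changes of 1.47 ± 0.22 in bIRI (adjusted p = 0.00114) and 0.85 ± 0.20 in BHBNa_bIRI (adjusted p = 0.00789). Of its 100-base transcript windows, 42.2% are shared with 11 other annotated genes, so its count may be split among them.

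Hnrnpa2b1, the close relative of Hnrnpa1, had 312, 281 and 248 CPM in BHBNa_bIRI, 333 and 622 CPM in bIRI, and 179, 187 and 204 CPM in Sham. It was called in bIRI against Sham (log2 1.33 ± 0.26, edgeR adjusted p = 0.00437), while BHBNa_bIRI against Sham gave 0.56 ± 0.24 (adjusted p = 0.081) with groups that did not overlap. Hnrnpu, a scaffold protein that binds chromatin and nuclear RNA, had 212, 211 and 191 CPM in BHBNa_bIRI, 274 and 378 CPM in bIRI, and 132, 128 and 129 CPM in Sham. The groups stood in 3 separate ranges, and every comparison was called, with log2 changes of 1.33 ± 0.19 in bIRI against Sham (adjusted p = 0.000881), -0.67 ± 0.19 in BHBNa_bIRI against bIRI (adjusted p = 0.0466) and 0.66 ± 0.17 in BHBNa_bIRI against Sham (adjusted p = 0.0126). With offsets for length and GC content the change of Hnrnpu was 0.60 in bIRI against Sham (adjusted p = 0.0109), and 0.15 in BHBNa_bIRI against bIRI (adjusted p = 0.536), the opposite direction.

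The G-rich binders Hnrnph1 and Hnrnph3 were set apart by bIRI replicate 3. Hnrnph1 had 98.4, 99.6 and 88.1 CPM in BHBNa_bIRI, 88.1 and 247 CPM in bIRI, and 44.9, 53.6 and 56.3 CPM in Sham. It was called against Sham in bIRI (log2 1.70 ± 0.34, edgeR adjusted p = 0.0051) and in BHBNa_bIRI (0.89 ± 0.31, adjusted p = 0.0446), and with bIRI replicate 1 alone the bIRI change was 0.77 (adjusted p = 0.00525). Hnrnph3 had 8.39, 8.61 and 6.77 CPM in BHBNa_bIRI, 9.28 and 51.9 CPM in bIRI replicates 1 and 3, and 8.42, 7.92 and 8.27 CPM in Sham. Apart from bIRI replicate 3, its libraries lay within a narrow range. Its fitted changes were the largest of the members, 1.90 ± 0.52 in bIRI against Sham (adjusted p = 0.02) and -1.95 ± 0.52 in BHBNa_bIRI against bIRI (adjusted p = 0.0411), and with bIRI replicate 1 alone they were 0.18 (adjusted p = 0.588) and -0.23 (adjusted p = 0.565).

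Hnrnpul1 and Hnrnpul2, relatives of Hnrnpu, were called lower in BHBNa_bIRI. Hnrnpul2 had 57.9, 64.6 and 47.3 CPM in BHBNa_bIRI, 88.6 and 156 CPM in bIRI, and 97.3, 96.1 and 82.4 CPM in Sham. All BHBNa_bIRI libraries were below all others (log2 -0.70 ± 0.22 against Sham, edgeR adjusted p = 0.0297, and -1.11 ± 0.24 against bIRI, adjusted p = 0.0303). The call against Sham was lost with length and GC offsets (-0.43, adjusted p = 0.0675) and with upper-quartile factors (-0.60, adjusted p = 0.0616). Hnrnpul1 had 64.5, 75.6 and 73.7 CPM in BHBNa_bIRI, 79.6 and 108 CPM in bIRI, and 113, 111 and 98.6 CPM in Sham. It was called lower against Sham (-0.59 ± 0.17, adjusted p = 0.0176), with BHBNa_bIRI below every other library. Hnrnpc, Hnrnpk, Hnrnpll, Hnrnpf, Hnrnpa0 and Hnrnpr were called in no comparison, with log2 changes from -0.97 to 0.71. Hnrnpl, a binder of CA repeats, was called in BHBNa_bIRI against Sham (0.63 ± 0.17, adjusted p = 0.0126) and not in bIRI against Sham (0.22 ± 0.18, adjusted p = 0.375); their difference was not called (0.41 ± 0.19, adjusted p = 0.15).

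Of the 9 SF3 genes 2 were called in bIRI against Sham, with a median log2 change of 0.17 over the family, and 4 in BHBNa_bIRI against Sham, with a median of 0.43. All these calls were higher. Of all genes tested 35.1% and 43.6% were called in these comparisons and 18.9% and 21.3% were called higher, with medians of 0.08 and 0.04. The family's counts lay under or near the shares called in either direction. Set against the shares called higher, they lay near in bIRI and above in BHBNa_bIRI. Sf3b1 (ENSMUSG00000025982, chr1:54985169-55027481), the subunit that clamps the branch point, had 106, 129.5 and 98.1 CPM in BHBNa_bIRI, 169.9 and 188 CPM in bIRI, and 91.2, 97.4 and 95.7 CPM in Sham. Both bIRI libraries were above all others, with log2 changes of 0.92 ± 0.18 against Sham (edgeR adjusted p = 0.00387) and, for BHBNa_bIRI against bIRI, -0.69 ± 0.18 (adjusted p = 0.0372). Under offsets for length and GC content these values were 0.36 (adjusted p = 0.0797) and -0.01 (adjusted p = 0.969). Sf3a3 was called higher against Sham in BHBNa_bIRI (0.68 ± 0.15, adjusted p = 0.00652) and in bIRI (0.48 ± 0.17, adjusted p = 0.0497).

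Sf3b5 and Sf3a2 were the members called higher in BHBNa_bIRI against bIRI. Sf3b5, a small subunit of SF3B, had 112, 86.1 and 124 CPM in BHBNa_bIRI, 64.5 and 24.4 CPM in bIRI, and 39.2, 39.3 and 51.2 CPM in Sham. The BHBNa_bIRI libraries were above all others (log2 1.31 ± 0.32 against Sham, edgeR adjusted p = 0.00922, and 1.27 ± 0.37 against bIRI, adjusted p = 0.0488), while the bIRI libraries lay on either side of Sham. Sf3a2, a subunit of SF3A, had 42.5, 34.0 and 47.1 CPM in BHBNa_bIRI, 28.7 and 21.7 CPM in bIRI, and 19.3, 19.2 and 20.8 CPM in Sham. The groups stood in 3 separate ranges, with changes of 1.06 ± 0.18 against Sham (adjusted p = 0.00135) and 0.71 ± 0.20 against bIRI (adjusted p = 0.0459). With bIRI replicate 1 alone the changes against bIRI were 0.73 for Sf3b5 (adjusted p = 0.0843) and 0.52 for Sf3a2 (adjusted p = 0.139). Sf3b6, which lies at the branch point adenosine, had 83.1, 78.6 and 86.1 CPM in BHBNa_bIRI, 73.1 and 40.0 CPM in bIRI, and 77.8, 80.5 and 87.1 CPM in Sham, and was called in no comparison. Sf3a1, Sf3b2 and Sf3b4 were called in no comparison either, and Sf3b3 in BHBNa_bIRI against Sham with a log2 change of 0.43.

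Between the bIRI libraries alone, with no test since each is a single library, 8 of 44 members (18.2%) were more than 2-fold higher in replicate 3, against 12.1% of all genes tested, and 3 were more than 2-fold lower, against 9.43%. The 8 were Clk1 to Clk4, Hnrnph1, Hnrnph3, Hnrnpr and Srsf5, and the 3 were Sf3b4, Sf3b5 and Srsf9. Hnrnph3 differed most, by 5.59-fold. The median log2 difference was 1.32 for the Clk, 0.27 for the Srsf, 0.22 for the Hnrnp and -0.27 for the Sf3 genes.

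**Figure D5:**
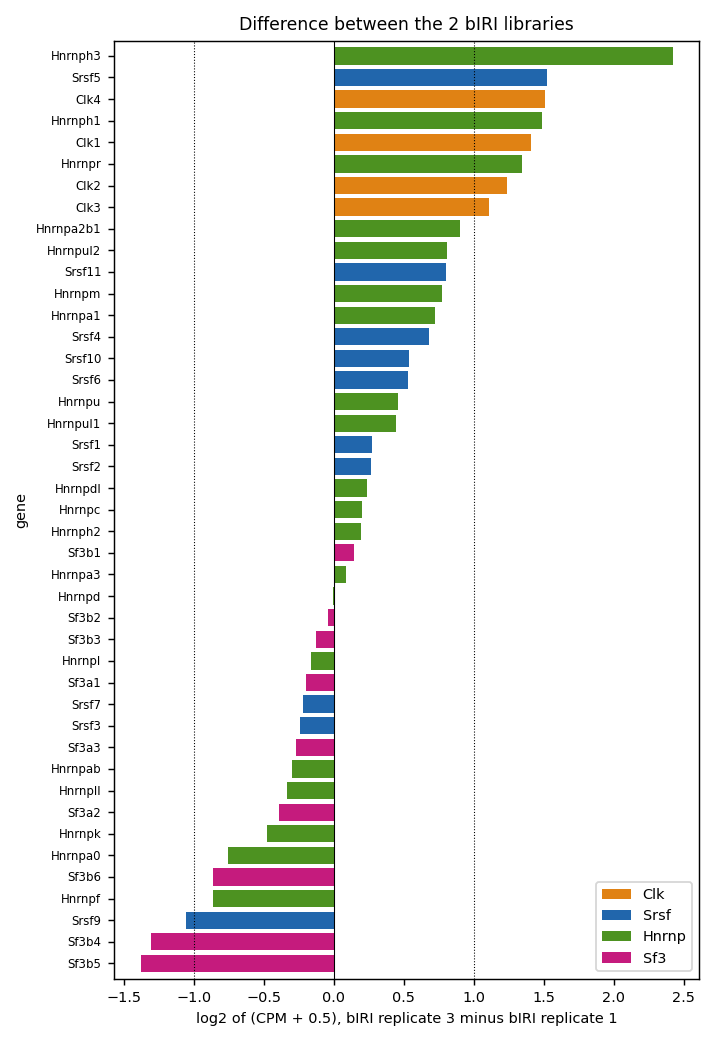
Difference between the bIRI libraries (x axis, log2 of CPM + 0.5, replicate 3 minus replicate 1) for 43 genes (y axis, sorted; Srsf12 is not drawn), with bars coloured by family and dotted lines at 2-fold. The 4 Clk bars and Hnrnph3, Hnrnph1, Hnrnpr and Srsf5 pass the right line, and Srsf9, Sf3b4 and Sf3b5 pass the left line.

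In the annotation, 33 of 44 members (75%) have a transcript with a retained intron and 24 (54.5%) one subject to nonsense-mediated decay, against 55.1% and 26.4% of 14938 protein-coding genes tested. All 4 Clk genes have both kinds, and Clk1 and Clk4 have 7 retained-intron transcripts each. Of the 11 Srsf genes 9 have a nonsense-mediated decay transcript, and of the 9 Sf3 genes 1 does. The longest coding transcript of a member had a median GC content of 45.3% and a median length of 2716 bases, against 50.3% and 3069 bases. With offsets for those properties, 21 members were called higher and 1 lower in bIRI against Sham, with a median of 0.49, and 26 higher and 2 lower in BHBNa_bIRI against Sham, with a median of 0.70. Under these offsets 36% and 45.5% of all genes were called in either direction, with medians of 0.09 and 0.02. Calls in bIRI against Sham that were lost under the offsets included Hnrnpa3 (0.26, adjusted p = 0.389), Hnrnpd (0.36, adjusted p = 0.191), Hnrnph2 (0.45, adjusted p = 0.0504) and Srsf6 (0.33, adjusted p = 0.142), besides Srsf3 and Sf3b1. Near copies or overlapping exons make the counts of several members uncertain. The shared portion of 100-base windows was largest for Srsf4 at 62.5%, Hnrnpf at 56.3% and Hnrnpa1 at 42.2%, and it was 36.9% for Sf3b4 and 30.6% for Srsf2.

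The partners of these factors were read from lists of other splicing genes. Of 41 other splicing regulators, 28 were called higher and 0 lower in bIRI against Sham, 0 higher and 11 lower in BHBNa_bIRI against bIRI, and 16 higher and 0 lower in BHBNa_bIRI against Sham, with medians of 1.09, -0.43 and 0.39. Over all genes tested 18.9% and 16.2%, 4.88% and 8.65%, and 21.3% and 22.2% were called higher and lower in these comparisons, with medians of 0.08, -0.05 and 0.04. Luc7l3, a U1-associated factor, had 32.0, 30.8 and 26.8 CPM in BHBNa_bIRI, 37.6 and 92.7 CPM in bIRI, and 9.32, 10.3 and 10.5 CPM in Sham. All its injured libraries were above Sham (log2 2.70 ± 0.31 in bIRI, edgeR adjusted p = 0.000342, and 1.57 ± 0.29 in BHBNa_bIRI, adjusted p = 0.0022). Pnn, a nuclear speckle protein, had 11.4, 13.5 and 10.4 CPM in BHBNa_bIRI, 23.3 and 99.8 CPM in bIRI, and 6.61, 7.28 and 7.08 CPM in Sham. Both bIRI libraries were above all others, with replicate 3 far above replicate 1 (log2 3.14 ± 0.47 in bIRI against Sham, adjusted p = 0.00111, and -2.39 ± 0.46 in BHBNa_bIRI against bIRI, adjusted p = 0.0275). Celf2, a binder of GU-rich RNA, had 8.74, 11.3 and 11.0 CPM in BHBNa_bIRI, 10.4 and 11.9 CPM in bIRI, and 3.23, 2.6 and 4.60 CPM in Sham. All its injured libraries were above Sham and the injured groups overlapped each other (1.57 ± 0.25 in BHBNa_bIRI, adjusted p = 0.00113, and 1.68 ± 0.27 in bIRI, adjusted p = 0.00171).

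The Sm and LSm genes encode the rings that hold snRNP RNAs. Of 13 tested, 11 were called higher and 0 lower in BHBNa_bIRI against Sham (21.3% and 22.2% of all genes tested), 3 higher and 0 lower in BHBNa_bIRI against bIRI (4.88% and 8.65%), and 5 higher and 0 lower in bIRI against Sham (18.9% and 16.2%). The medians were 1.31, 0.79 and 0.47, against 0.04, -0.05 and 0.08 over all genes tested. Snrpb and Lsm4 were not called in BHBNa_bIRI against Sham. Snrpd1 had 71.1, 60.9 and 73.5 CPM in BHBNa_bIRI, 55.4 and 46.2 CPM in bIRI, and 16.5, 17.6 and 20.6 CPM in Sham. Lsm7 had 45.9, 35.4 and 54.7 CPM in BHBNa_bIRI, 18.2 and 11.9 CPM in bIRI, and 7.18, 8.97 and 10.9 CPM in Sham. In both genes BHBNa_bIRI was highest and Sham lowest, with no overlap. Of 10 partners of U1 and U2, 6 were called higher and 0 lower in BHBNa_bIRI against Sham, 2 higher and 1 lower in BHBNa_bIRI against bIRI, and 4 higher and 0 lower in bIRI against Sham, with medians of 0.62, 0.22 and 0.24.

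Of 15 U5 and tri-snRNP genes tested, 6 were called higher and 3 lower in BHBNa_bIRI against Sham (21.3% and 22.2% of all genes tested), 1 higher and 0 lower in BHBNa_bIRI against bIRI (4.88% and 8.65%), and 2 higher and 2 lower in bIRI against Sham (18.9% and 16.2%). Apart from the 6 called higher, these shares lay near or under those of all genes. Prpf8, the core of U5, had 112, 109.7 and 101 CPM in BHBNa_bIRI, 102 and 175 CPM in bIRI, and 289, 256 and 206 CPM in Sham. All its injured libraries lay below Sham (log2 -1.22 ± 0.23 in BHBNa_bIRI, edgeR adjusted p = 0.00243, and -0.86 ± 0.26 in bIRI, adjusted p = 0.0286). Of 17 genes of the Prp19 complex and activation steps, 4 were higher and 3 lower in BHBNa_bIRI against Sham, 2 higher and 3 lower in BHBNa_bIRI against bIRI, and 2 higher and 1 lower in bIRI against Sham. The shares against Sham lay near those of all genes tested in BHBNa_bIRI and under them in bIRI. Among 6 other kinases and import factors of SR proteins, Prpf4b was called higher against Sham in BHBNa_bIRI (log2 0.70) and in bIRI (1.28), and Tnpo3, the importin of SR proteins, lower in BHBNa_bIRI against Sham (-1.09) and against bIRI (-1.14). Srpk1 was called higher in BHBNa_bIRI against Sham (0.45).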

How the data were processed

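Messenger RNA of mouse kidney was measured in 3 groups of 3 libraries. Per the labels' protocols, RNA was captured with oligo(dT) and sequenced as paired ends; per the submitters' processing notes, HISAT2, featureCounts of Subread, DESeq2 and the build mm10 were used. For their versions, the annotation and the strand setting, the sources used here say nothing. Raw read counts per gene, as the authors deposited them, were the starting point, 1 table per library. Symbols and positions came from GENCODE M21 on GRCm38. The 458 rows without a symbol stayed in the fit.

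Library bIRI replicate 2, the mean of replicates 1 and 3, was left out. The other 8 libraries, 33477985 to 45909063 counts, were filtered with filterByExpr, TMM-scaled (factors 0.83 to 1.37) and fitted with edgeR 4.0.16 (R 4.3.3, limma 3.58.1) by a quasi-likelihood model with 1 mean per group and 5 residual degrees of freedom (biological coefficient of variation 0.296). All tests were two-sided, and adjusted p is Benjamini-Hochberg over 17967 genes within a comparison. The SE is the log2 change divided by the square root of F. The design had named these 8 libraries if bIRI replicate 2 was that mean, and all 9 otherwise. The fit of all 9 is an alternative. Further alternatives were DESeq2 1.42.0, other scaling factors and filters, a fit without the uncompared group, a block for the replicate number, length and GC offsets, and leaving out each library. The scripts were also tested on simulated data, in which 200 genes had known changes.

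By rule, the text names the 10 largest called rises and falls of members in each comparison, and Clk1 to Clk4. From each other list it names from the 3 called genes with the largest change in a comparison. Outside this rule, Neat1 was named after its values were seen. Further members, such as Sf3b6, Sf3a3 and Hnrnpl, and list genes, such as Aqp2, Zcrb1, Zrsr2, Snrpb and Lsm4, are named outside it too. Members, lists and alternatives were chosen with earlier results of these data known. Promoters were those of RefSeq on GRCm38.p6.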

Additional observations from a re-analysis of the deposited data

How the results depend on the processing

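In bIRI against Sham, leaving out each library in turn gave 4180 to 9064 genes called in all (6303 with all 8 libraries) and 15 to 29 members (23 with all 8). In BHBNa_bIRI against bIRI the same gave 0 to 8381 genes (2431) and 0 to 29 members (9), and in BHBNa_bIRI against Sham 5408 to 10308 genes (7826) and 13 to 33 members (25). For BHBNa_bIRI against bIRI, a fit of these groups only called 1 gene and 0 members, length and GC offsets 53 genes and 0 members, keeping the averaged library 5847 genes and 20 members, and DESeq2 4507 genes and 15 members, with no adjusted p for 1 member. The replicate numbers did not pair the libraries: deviations of same-numbered libraries correlated at -0.35 to 0.16, and with the replicate number as a block 0 genes and 0 members were called in BHBNa_bIRI against bIRI. With that block 17 members were called in bIRI against Sham and 22 in BHBNa_bIRI against Sham, where 25.5% and 36.5% of all genes were called. Directions of many members turned between alternatives, mostly between the fits without bIRI replicate 1 and without bIRI replicate 3; the following are examples. In bIRI against Sham they turned for Sf3b5, which ran from -0.89 without bIRI replicate 1 to 0.58 without bIRI replicate 3, for Srsf9 (-0.61 to 0.54 in the same fits), for Clk3 (0.53 and -0.53), for Hnrnpul2 (0.69 and -0.05) and for Sf3b4 (-0.70 and 0.69), and in BHBNa_bIRI against bIRI for Clk1 (-0.82 and 0.54), Hnrnpf (0.64 and -0.29) and, with length and GC offsets, Hnrnpu (0.15); the cause was not tested. Values called in no fit could change sign too, such as Srsf4 in bIRI against Sham (-0.09 with all 8 libraries, 0.16 without bIRI replicate 1, 0.19 with length and GC offsets). The 2 bIRI libraries limit the comparisons with bIRI, and depth limits Srsf12, whose levels lay near the floor of 3 counts.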

Other observations

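Genes of the exon junction complex and nonsense-mediated decay, the pathway that removes transcripts with early stop codons, were also measured. Of 13, 5 were called higher and 1 lower in BHBNa_bIRI against Sham, 0 higher and 2 lower in BHBNa_bIRI against bIRI, and 5 higher and 0 lower in bIRI against Sham. Over all genes tested the shares called higher and lower were 21.3% and 22.2%, 4.88% and 8.65%, and 18.9% and 16.2%. Upf2 had 9.46, 10.2 and 7.72 CPM in BHBNa_bIRI, 11.7 and 32.5 CPM in bIRI, and 5.91, 5.14 and 6.02 CPM in Sham, so that every injured library lay above Sham and bIRI replicate 3 stood highest.

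Genes of the minor spliceosome, which removes a rare class of introns, were measured as well. Of 8, 4 were called higher and 1 lower in bIRI against Sham, 0 higher and 2 lower in BHBNa_bIRI against bIRI, and 0 in either direction in BHBNa_bIRI against Sham, with medians of 0.61, -0.38 and 0.10. In the same order, 18.9% and 16.2%, 4.88% and 8.65%, and 21.3% and 22.2% of all genes tested were called higher and lower. Their medians were 0.08, -0.05 and 0.04. Called higher in bIRI were Rnpc3, Snrnp48, Zcrb1 and Zrsr2, and called lower was Snrnp25 (log2 -1.19). Rnpc3 had 3.96, 5.32 and 3.42 CPM in BHBNa_bIRI, 9.74 and 21.7 CPM in bIRI, and 4.10, 4.18 and 4.26 CPM in Sham. Both bIRI libraries lay above all others (log2 1.91 ± 0.34 in bIRI against Sham, edgeR adjusted p = 0.00265, and -1.89 ± 0.34 in BHBNa_bIRI against bIRI, adjusted p = 0.0275).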
